A study of Mus musculus with 12 samples.

Results

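The immediate-early genes of the AP-1 and EGR transcription factor families were examined in a lymphoma line of mouse thymic T cells, BW5147. They were the 10 genes Fos, Fosb, Fosl2, Jun, Junb, Jund, Egr1, Egr2, Egr3 and Atf3, of 12393 genes measured by at least 1 probe set with a single gene symbol. They were taken by symbol, which gave 12 of 22626 probe sets, with 2 each for Jun and Egr2 and 1 for every other gene. The cells received Dex (the synthetic glucocorticoid dexamethasone, at 100 ng/ml) with IL-9 (the T cell cytokine interleukin-9, at 100 U/ml), Dex with the chemokine CCL1 (100 U/ml), Dex alone, IL-9 alone, CCL1 alone, or no stimulus. All groups were this line with no genetic change named, and RNA was taken at 8 h. Each of the 6 groups held 2 Affymetrix arrays, numbered 1 and 2 in the labels, 12 in all. The labels do not say whether the 2 came from separate cultures, so p-values here describe only array-to-array spread, which can be technical.

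Immediate-early genes are switched on by growth factors, cytokines and antigen receptors without new protein synthesis. AP-1 is a dimer of basic leucine zipper proteins: Fos, Fosb and Fosl2 must pair with a Jun protein to bind DNA, whereas Jun, Junb and Jund can also pair with each other, and Atf3 pairs with Jun proteins. EGR proteins are zinc finger factors that bind GC-rich sites, and in T cells Egr2 and Egr3 are known for restraining activation after antigen receptor signals. The ERK kinases reach the promoters of Fos and of Egr genes through serum response factor and its ternary complex partners at CArG boxes, and cAMP signals reach Fos through CREB-type proteins. Junb is also a known target of STAT3, which the IL-9 receptor activates through JAK kinases. Induction of most of these genes is usually brief, and 8 h lies after the usual peak.

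The promoter sequences of Fos and Junb are shown because these were the 2 of the 10 genes whose signal stood apart in every array given IL-9. Each is the stretch of 150 bases directly before the RefSeq transcription start in the mouse assembly GRCm38.p6, printed 5′ to 3′ on the strand of the gene, chr12:85473740-85473889 on the plus strand for Fos and chr8:84978749-84978898 on the minus strand for Junb. Capitals mark TGACG, a core of the sites bound by CREB and ATF proteins.
Fos: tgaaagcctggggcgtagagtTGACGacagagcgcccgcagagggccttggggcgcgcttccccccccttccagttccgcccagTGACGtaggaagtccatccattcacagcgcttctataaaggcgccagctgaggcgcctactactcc
Junb: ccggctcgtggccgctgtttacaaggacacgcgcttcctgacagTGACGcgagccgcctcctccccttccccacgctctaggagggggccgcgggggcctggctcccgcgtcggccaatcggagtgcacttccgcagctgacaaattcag
The matches began at -129 and -66 from the start in Fos and at -106 in Junb, and 20.8% of 32851 promoter windows of 300 bases, from 250 before to 50 after the start, held this motif on either strand. The other 7 motifs searched on both strands were not found in the windows of these 2 genes: TGACGTCA (the full CREB site, which contains the shorter motif, in 1.79% of windows), TGACTCA (AP-1, 5.2%), TTCNNNGAA (STAT, 8.3%), GCGTGGGCG and GCGGGGGCG (EGR, 0.612% and 2.91%), CCGGAAGT (ETS, 3.89%) and the CArG box (1.63%). Of the other genes, Fosb held TGACG at -60 and GCGGGGGCG at -50, Fosl2 held GCGGGGGCG at -79, Egr2 held a CArG box and TGACG, and Atf3 held TGACG. No motif of the 8 was found in Jun or Jund, and sequences were matched for 8 of the 10 genes, with Egr1 and Egr3 not used here. A match is a run of letters and was not tested for binding. Sites outside these windows, or with letters other than the motifs, were not searched.

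The values were MAS5 signals, linear probe set intensities scaled so that every array had a trimmed mean near 100. The median signal of an array lay between 14.5 and 17.6. The array CCL1 2 was of another array type in a separately made table. It entered no test unless named as added, except the fits of the arrays numbered 2 alone, which held it. Without it, tests of CCL1 alone rested on 1 array. Differences are log2 differences of signal + 16, and each was tested in limma, with p adjusted by Benjamini-Hochberg over the 13575 kept probe sets and called at 0.05. The main model gave each group a mean. A second model compared arrays of the same number within the same Dex condition, and its calls are given where they differ. The glucocorticoid targets, a list of 6 genes, did not follow the labels. Of these Tsc22d3, Fkbp5, Per1 and Ddit4 passed the filter on low signals, with Klf9 and Zbtb16 below it. The mean log2 level of all 6, centred on all arrays, was 0.0605 to 0.320 in the 6 Dex arrays. It was -0.0458, 0.139 and 0.322 in IL-9 1, CCL1 1 and unstimulated 1, and -0.668, -0.561 and -0.474 in IL-9 2, CCL1 2 and unstimulated 2. The arrays labelled without Dex and numbered 1 thus lay near the Dex arrays, and results are given by number for that reason. T lineage markers (Cd3e, Cd3g, Cd3d, Thy1, Ptprc and Cd28) passed the filter on low signals, 6 of 8 measured, with Cd247 and Cd2 below it. The summed signal of all 8 was 3985 to 5495. B cell markers (3 measured) and erythroid markers (2 measured) were all below the filter. The 4 measured macrophage markers all passed it at low signals, summing to 36.4 to 52.9 in the IL-9 arrays, 25.9 to 51.1 in the CCL1 arrays and 29.2 to 47.5 in the arrays given neither. Of these Csf1r had 13.8 to 24.6 in the IL-9 arrays, against 7.37 to 20.6 in the CCL1 arrays. It lay above the 4 arrays given neither stimulus, at 8.21 to 12.8, as did 2.5% of kept probe sets. Adgre1, Cd68 and Lyz2 overlapped between the IL-9 arrays and the arrays given neither, with Adgre1 at 4.13 to 9.01 against 4.23 to 13.0. The averaged IL-9 difference of Csf1r did not pass (0.27, adjusted p = 0.643), and its part in other results was not tested.

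The 10 genes differed widely in level, and 5 of them passed the filter, which kept probe sets with a mean above a signal of 6.32. These were Jund, Junb, Fos, Fosl2 and Egr3, and all 5 also lay above that level over the 7 tested arrays without IL-9. By the mean over the tested arrays, Jund stood at percentile 71.5 of all probe sets, Junb at 61.8, Fos at 50.0, Fosl2 at 45.5 and Egr3 at 43.0. Jun (38.5), Egr2 (29.4), Atf3 (22.2), Fosb (19.7) and Egr1 (15.7) did not pass, each given by its brighter probe set. Signals of different probe sets do not compare as RNA amounts, so these percentiles describe how far each probe set rose above the dim end of the array.

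**Figure D1:**
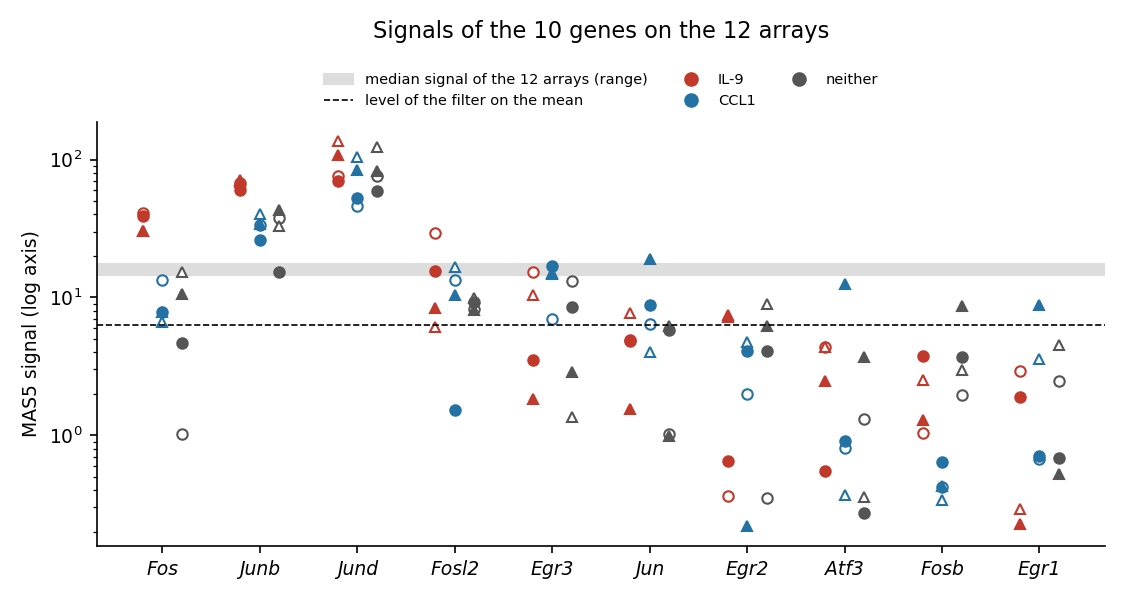
MAS5 signal (log axis) of each gene on the 12 arrays, by its probe set with the higher mean. Red is IL-9, blue CCL1 and grey neither, filled symbols are with Dex and open ones without, circles are arrays numbered 1 and triangles arrays numbered 2. The grey band is the range of the array medians (14.5 to 17.6) and the dashed line the filter (6.32). For Fos and Junb all red symbols lie above all others.

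Fos, the founding Fos protein of AP-1, had a higher signal in every array given IL-9 than in any other array. Its signals were 38.7 and 30.3 with Dex+IL-9, against 4.67 and 10.6 with Dex alone. Without Dex they were 41.1 and 30.3 with IL-9, against 1.02 and 15.2 in unstimulated cells. All 8 arrays without IL-9 lay at or below 15.2, near or under the array medians, and the 4 arrays with IL-9 lay at or above 30.3. Of all kept probe sets 0.7% had all IL-9 arrays above the 8 others, and 2.5% had them above the 4 arrays given neither IL-9 nor CCL1. The difference was 1.10 (SE 0.28, adjusted p = 0.749) for Dex+IL-9 against Dex and 1.16 (SE 0.28, adjusted p = 0.754) for IL-9 against unstimulated cells, each with 0.0221% of probe sets called. Averaged over both, it was 1.13 (SE 0.19, adjusted p = 0.0767), which did not pass in the main model, where 0.0958% were called. Between arrays of the same number it was 1.40 and 0.80 with Dex and 1.75 and 0.57 without it, so all 4 differences were above 0, as for 8.66% of kept probe sets. Fos rose with IL-9 in the model by number (1.13, SE 0.19, adjusted p = 0.0209), where 0.317% of probe sets were called higher. With the number as a block over all groups, in place of within each Dex condition, Fos did not pass (adjusted p = 0.0619).

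The Fos difference was widest in the arrays numbered 1, and its size depended on the pseudocount. Unstimulated 1 and Dex 1 held its lowest signals, and both were the controls of the larger differences. The arrays numbered 2 alone gave 0.69 (adjusted p = 0.766) and those numbered 1 alone 1.58 (adjusted p = 0.00238). The call in the model by number was lost without unstimulated 1 (0.92, adjusted p = 0.0692), without Dex 1 (1.08, 0.111), without Dex+IL-9 1 (1.04, 0.139) or without IL-9 1 (1.02, 0.142). It was gained in the main model without unstimulated 2 (1.35, adjusted p = 0.0191) or without Dex 1 (1.04, adjusted p = 0.0274). With a pseudocount of 1 in place of 16 the difference was 2.39 (adjusted p = 0.239), and with 64 it was 0.47 (adjusted p = 0.0362).

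Junb, a Jun protein that is induced by many cytokines, showed the same separation. Its signals were 60.6 and 69.2 with Dex+IL-9, against 15.3 and 43.2 with Dex alone. Without Dex they were 67.5 and 71.2 with IL-9, against 37.8 and 33.1 in unstimulated cells. The 4 IL-9 arrays again lay above the 8 others without overlap, and the IL-9 arrays were close to each other while the Dex arrays were far apart. The difference was 0.91 (SE 0.27, adjusted p = 0.838) with Dex, 0.73 (SE 0.27, adjusted p = 0.987) without it and 0.82 (SE 0.19, adjusted p = 0.200) averaged over both. By number it was 1.29 and 0.53 with Dex and 0.64 and 0.83 without it, above 0 in all 4. Junb rose in the model by number (0.82, SE 0.14, adjusted p = 0.0234) but did not pass with the block over all groups (adjusted p = 0.113).

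The Junb call rested on more of the arrays than that of Fos. It was lost in the model by number without unstimulated 1 (adjusted p = 0.0692), unstimulated 2 (0.0714), Dex 1 (0.111), Dex+IL-9 1 (0.164), IL-9 1 (0.126) or IL-9 2 (0.0717), with differences of 0.67 to 0.88 among these. It passed in the main model without Dex 2 (1.05, adjusted p = 0.0151). The arrays numbered 2 alone gave Junb a difference of 0.68 (adjusted p = 0.766), and those numbered 1 alone 0.96 (adjusted p = 0.0288). Without the 3 arrays numbered 1 and labelled without Dex, whose glucocorticoid targets lay near those of the Dex arrays, the differences were 0.92 for Fos and 0.88 for Junb (adjusted p = 0.191 for each). With all probe sets kept in the model by number, adjusted p was 0.0556 for Fos and 0.0643 for Junb. In bulk RNA, more RNA per cell and more cells with the transcript cannot be told apart.

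**Figure D2:**
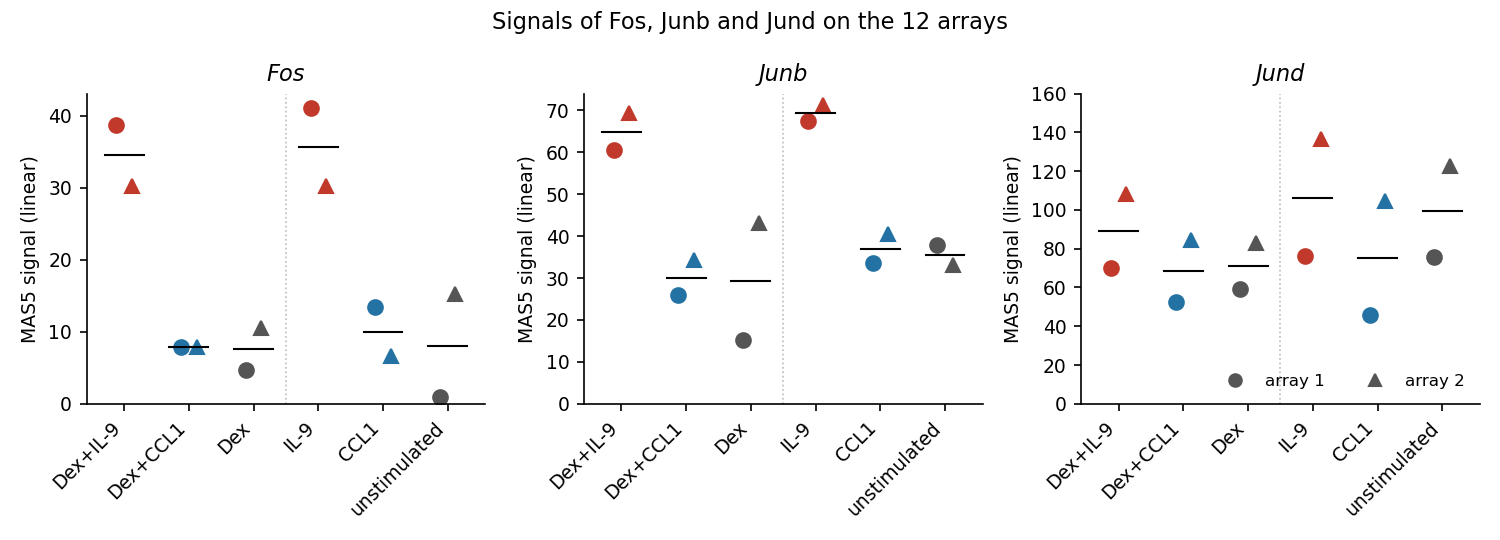
MAS5 signal (linear axis from 0) of Fos, Junb and Jund in the 6 groups; circles are arrays numbered 1, triangles arrays numbered 2 and bars the mean of the 2 arrays. The IL-9 groups (red) stand above the others for Fos (30.3 to 41.1) and Junb (60.6 to 71.2), whereas for Jund each triangle lies above every circle.

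As group means with SD (n = 2 each), Fos had 34.5 ± 5.98 with Dex+IL-9, 7.85 ± 0.0170 with Dex+CCL1 and 7.62 ± 4.17 with Dex, and 35.7 ± 7.62 with IL-9, 10.0 ± 4.85 with CCL1 and 8.10 ± 10.0 in unstimulated cells. The corresponding Junb means were 64.9 ± 6.12, 30.1 ± 5.89 and 29.2 ± 19.8 with Dex, and 69.4 ± 2.58, 37.0 ± 4.77 and 35.4 ± 3.30 without it. For both genes IL-9 alone was highest and Dex+IL-9 next, and these neighbours differed by less than their SD or overlapped. The 4 groups without IL-9 overlapped one another for Fos, with unstimulated cells spread over the whole range. For Junb, Dex+CCL1 and Dex overlapped, as did CCL1 and unstimulated cells. The CCL1 means join 2 tables that were made separately.

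Jund, a Jun protein that most cells express steadily, did not separate by stimulus. Its signals were 70.0 and 108 with Dex+IL-9, against 59.1 and 82.8 with Dex. Without Dex they were 76.2 and 137 with IL-9, against 75.8 and 123 in unstimulated cells. With CCL1 they were 52.5 and 84.3 with Dex and 46.0 and 105 without it. The 6 arrays numbered 2 lay at 82.8 to 137, above the 6 numbered 1 at 46.0 to 76.2, with no overlap, as for 1.13% of kept probe sets. The difference of number 2 minus number 1 was 0.39 to 0.96 in the 6 groups, above 0 in all 6 as for 5.5% of kept probe sets. IL-9 differed from its controls by 0.17 on average (SE 0.22, adjusted p = 0.882), and by number the 4 differences ran from 0.0057 to 0.33. Jund did not pass in the model by number either (0.17, SE 0.12, adjusted p = 0.581).

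Fosl2 and Egr3 had median signals of 9.61 and 9.45 over the 12 arrays, below the array medians, and varied widely within some groups. Fosl2 (Fra-2), a Fos relative that often follows Fos later in a response, had 15.5 and 8.31 with Dex+IL-9, against 9.25 and 8.08 with Dex. It had 29.1 and 6.05 with IL-9, against 8.29 and 9.97 in unstimulated cells. A single array, IL-9 1, held its highest signal, and the other IL-9 array lay below both unstimulated arrays. The averaged IL-9 difference was 0.25 (SE 0.22, adjusted p = 0.804). Egr3 had 3.50 and 1.83 with Dex+IL-9, against 8.47 and 2.86 with Dex, and 15.2 and 10.4 with IL-9, against 13.1 and 1.35 in unstimulated cells. Its averaged IL-9 difference was 0.075 (SE 0.18, adjusted p = 0.944), below 0 in both pairs with Dex and above 0 in both without.

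The 5 genes below the filter gave signals at which MAS5 values of single probe sets scatter. Jun, the partner through which Fos acts in many cells, had 0.992 to 19.1 by its brighter probe set and 0.297 to 4.58 by the other. The highest Jun value was in Dex+CCL1 2. Egr2 ranged over 0.218 to 8.99 and 0.177 to 6.23 by its 2 probe sets. Egr1, an EGR factor that responds to nearly every mitogen, had 0.226 to 8.86, and Atf3, a stress-induced partner of Jun proteins, had 0.271 to 12.5. Both Egr1 and Atf3 were also highest in Dex+CCL1 2. Fosb, a Fos relative, had 0.338 to 8.67. With all probe sets kept, none of the 5 passed in the averaged IL-9 or CCL1 comparison, which called 0.053% and 0.00442% of probe sets, and their presence at low level could not be read from these signals.

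CCL1, a ligand of the receptor Ccr8 that signals through G proteins, gave none of the 5 genes past the filter a called difference in the main model. Called probe sets were 0% of those tested for CCL1 against unstimulated cells, where 446 had an unadjusted p under 0.05, and 0.00737% both for Dex+CCL1 against Dex and for the averaged comparison. The model by number called 0.324%, none of these genes among them. Fos had 7.84 and 7.86 with Dex+CCL1, against 4.67 and 10.6 with Dex, and 13.5 and 6.61 with CCL1, against 1.02 and 15.2 in unstimulated cells. These overlap, and the averaged difference was 0.19 (SE 0.22, adjusted p = 0.949). Junb had 25.9 and 34.2 with Dex+CCL1 and 33.6 and 40.4 with CCL1, with an averaged difference of 0.022 (SE 0.21, adjusted p = 0.993). By number, 2 of 4 differences were above 0 for each. The CCL1 and IL-9 comparisons share their control arrays.

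Egr3 and Jund had the widest CCL1 differences among the 5. Egr3 had 16.9 and 14.7 with Dex+CCL1, against 8.47 and 2.86 with Dex, a difference of 0.57 (SE 0.25, adjusted p = 0.748). Without Dex it had 6.99 and 15.0 with CCL1, against 13.1 and 1.35 in unstimulated cells, and its difference by number was -0.34 and 0.84. Jund differed by -0.86 for CCL1 1 against unstimulated cells (SE 0.38, adjusted p = 1.00), where CCL1 1 is numbered 1 and unstimulated 2 is among the brighter arrays. Against the array of its own number the 4 Jund differences were -0.13 and 0.022 with Dex and -0.57 and -0.20 without it. Fosb was lower in all 4 CCL1 arrays, at 0.338 to 0.639, than in the 4 arrays given neither stimulus, at 1.97 to 8.67. That holds for 1.46% of the 9051 probe sets below the filter, and all these Fosb signals lie near the dim end.

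Setting IL-9 against CCL1 array by array needs no control array, whereas the fits given further below also held the control arrays. Fos was higher with IL-9 by 1.20 and 0.95 with Dex and by 0.95 and 1.03 without it. Junb was higher by 0.87 and 0.76 with Dex and by 0.75 and 0.63 without it. These 4 differences lay closer together than those against the controls, with an SD of 0.115 for Fos and 0.0987 for Junb, against 0.541 and 0.338 for the IL-9 differences from controls. Jund also differed in the same direction in all 4 pairs, by 0.31 to 0.57, as 10.1% of kept probe sets did. The 4 IL-9 arrays lay above the 4 CCL1 arrays without overlap for Fos and Junb, as for 2.51% of kept probe sets. Fosb, below the filter, was higher by 0.053 to 0.25 in the 4 pairs and did not overlap either, as for 4.65% and 1.14% of probe sets below the filter. For Fosl2 and Egr3 the direction varied. In the main model, which holds CCL1 1 but not CCL1 2, the difference was 0.94 for Fos (SE 0.22, adjusted p = 0.197), 0.80 for Junb (SE 0.21, adjusted p = 0.312) and 0.63 for Jund (SE 0.25, adjusted p = 0.914), and 0.236% of probe sets were called. In the model by number, with 0.339% of probe sets called higher, Junb was higher with IL-9 than with CCL1 (0.80, SE 0.16, adjusted p = 0.0441) and Fos missed the threshold (0.94, SE 0.21, adjusted p = 0.0795). This Junb call held when Dex 1 (adjusted p = 0.0234) or Dex 2 (0.0178) was left out and was lost without any 1 of the other 9 arrays (adjusted p = 0.0641 to 0.297). With CCL1 2 added to that model, which called 0.479% higher, both passed, Fos at 1.04 (SE 0.19, adjusted p = 0.0156) and Junb at 0.75 (SE 0.14, adjusted p = 0.0160), and Jund did not (0.39, adjusted p = 0.165).

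**Figure D3:**
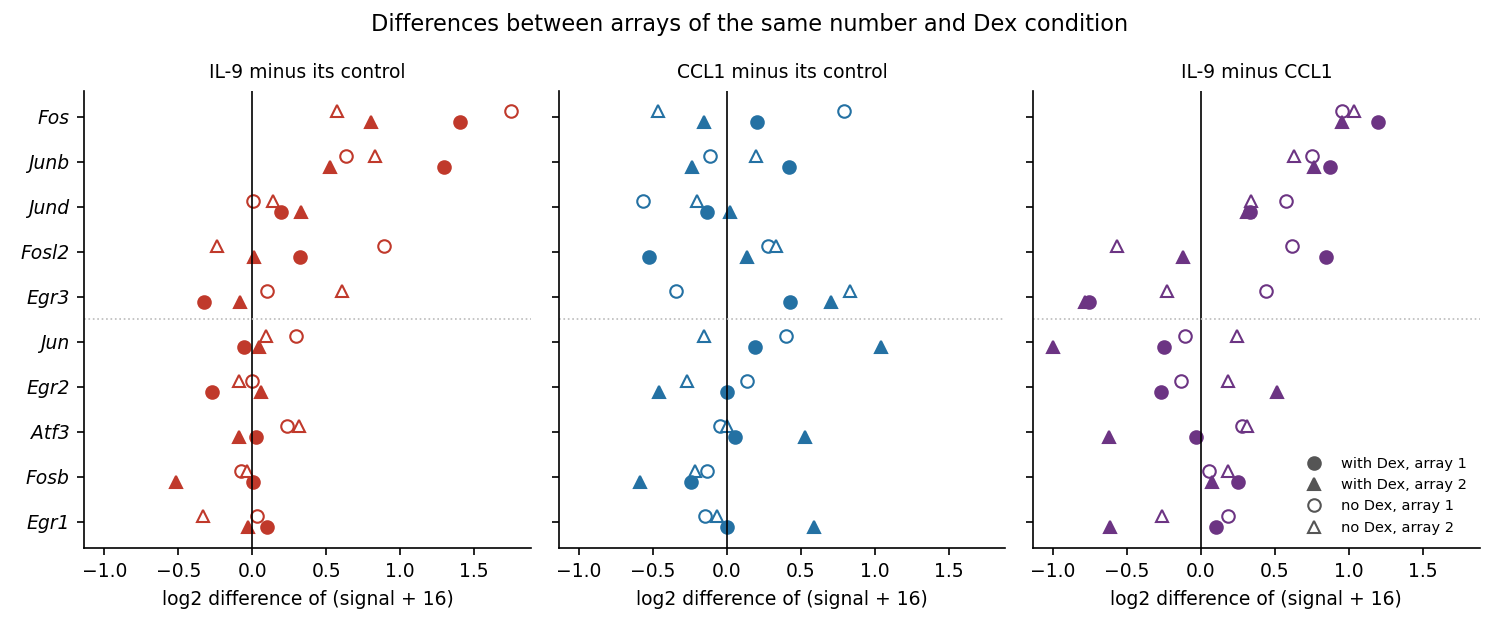
Log2 difference of (signal + 16) between arrays of the same number and Dex condition, for each gene by its probe set with the higher mean; filled symbols are with Dex, open ones without, circles number 1 and triangles number 2. Genes above the dotted line passed the filter. Fos and Junb lie right of 0 in all 4 pairs for IL-9 minus its control (0.57 to 1.75 and 0.53 to 1.29) and for IL-9 minus CCL1, and on both sides of 0 for CCL1 minus its control.

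Dex alone gave none of the 5 genes a called difference, among 0% of probe sets called (400 with an unadjusted p under 0.05). Against unstimulated cells it was 0.025 for Fos (SE 0.28), -0.26 for Junb (SE 0.27), -0.39 for Jund (SE 0.31), -0.027 for Fosl2 (SE 0.31) and -0.066 for Egr3 (SE 0.25), with adjusted p of 0.995 to 0.999. The arrays numbered 1 and labelled without Dex had glucocorticoid targets near the Dex level, and Dex was also examined without them. The fit of the arrays numbered 2 alone was additive, so its Dex difference is averaged over no stimulus, IL-9 and CCL1. It called 23 probe sets for Dex. The averaged Dex difference there was -0.051 for Fos (adjusted p = 0.957), 0.024 for Junb (0.981), -0.35 for Jund (0.678), -0.091 for Fosl2 (0.924) and -0.15 for Egr3 (0.876). The single pair Dex 2 minus unstimulated 2 gave -0.23 for Fos, 0.27 for Junb, -0.49 for Jund, -0.11 for Fosl2 and 0.12 for Egr3. Without unstimulated 1 in the main model, the difference of Dex from unstimulated cells was -0.41 for Fos and 0.31 for Egr3, each turned in direction. The effect of IL-9 with Dex minus that without it was -0.056 for Fos (SE 0.39, adjusted p = 1.00) and 0.18 for Junb (SE 0.38, adjusted p = 1.00). With standard errors of this size, a difference between the Dex conditions as large as the Junb effect itself would have been hard to detect.

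Apart from the 10 genes themselves, no gene in the list of AP-1 partners passed in either averaged comparison. Of 14 listed AP-1 partners 11 passed the filter, and 0 were called with IL-9 or CCL1 in the main model, where the averaged IL-9 comparison called 0.0958% of all probe sets. Their median IL-9 difference was 0.064, beside -0.018 over all 7507 genes. The widest were Cebpb (0.51, SE 0.20, adjusted p = 0.514), a leucine zipper factor of inflammatory responses, Jdp2 (-0.36, adjusted p = 0.486), which represses AP-1 sites, Crem (0.32, adjusted p = 0.621) and Mafk (0.31, adjusted p = 0.530). Batf, which pairs with Jun proteins in lymphocytes, was bright and steady at 166 to 251 across the 12 arrays, whereas Fosl1 and Batf3 lay below the filter. Among EGR partners 3 of 6 passed the filter and 0 were called. The corepressor Nab1 differed by 0.38 with IL-9 (adjusted p = 0.576), and Nab2 and Egr4 lay below the filter.

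Upstream, the serum response factors and the ERK cascade genes were also without calls. All 6 measured members of the first list passed the filter, with a median IL-9 difference of -0.065. Srf itself differed by -0.072 with IL-9 and -0.017 with CCL1. The 7 measured ERK cascade genes had medians of 0.020 with IL-9 and 0.046 with CCL1. These are transcript levels, and activity of the kinases was not measured.

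The feedback genes of the ERK pathway held 1 called gene among the 7 that passed the filter, and it rose with CCL1. Dusp6, a phosphatase that switches off ERK, had 509 and 622 with Dex+CCL1, against 183 and 209 with Dex. Without Dex it had 578 and 716 with CCL1, against 204 and 175 in unstimulated cells. The 4 CCL1 arrays lay above all others, and the averaged difference was 1.50 (SE 0.13, adjusted p = 0.00141). With IL-9 Dusp6 had 148 and 134 with Dex and 141 and 143 without it, below every control array, a difference of -0.40 that did not pass (adjusted p = 0.337). The shares of all probe sets with these 2 kinds of gap are not given here. Of the other 6, Spred2 (-0.41, adjusted p = 0.566) differed most with IL-9 and Spry4 (0.36, adjusted p = 0.892) with CCL1. Dusp1, another phosphatase of MAP kinases, differed by -0.16 with CCL1 in the main model (adjusted p = 0.975), from -0.56 to 0.25 there when 1 array was left out. By number Dusp1 fell with CCL1 (-0.61, SE 0.11, adjusted p = 0.0457). In that model it was also higher with IL-9 than with CCL1 (0.56, SE 0.11, adjusted p = 0.0441). The Dusp6 difference with CCL1 was 1.43 to 1.57 without each of the 10 arrays that could be left out of the main model. The Dusp1 call by number for CCL1 against its controls held without Dex 2 or Dex+IL-9 2 and was otherwise lost.

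Of 18 other immediate-early genes 14 passed the filter, and in the main model 0 were called with IL-9 and 0 with CCL1 in the averaged comparisons. The only gene of the list called for IL-9 minus CCL1 in that model was Zfp36, which encodes a protein that speeds the decay of inflammatory mRNAs. It was higher with IL-9 than with CCL1 (1.00, SE 0.17, adjusted p = 0.0477). Its signals with Dex were 47.1 and 65.6 with IL-9 and 23.2 and 14.4 with CCL1, against 22.7 and 28.4 with Dex alone. Without Dex they were 60.1 and 56.1 with IL-9 and 22.3 and 22.1 with CCL1, against 24.6 and 33.4 in unstimulated cells. As for Fos and Junb, the 4 IL-9 arrays lay above the 8 others. By number, Zfp36 rose with IL-9 (0.76, SE 0.14, adjusted p = 0.0348), as did Gadd45b (0.79, SE 0.15, adjusted p = 0.0373), a stress-response gene, while Btg2, an antiproliferative gene, fell (-0.76, SE 0.12, adjusted p = 0.0199). Btg2 signals were 18.4 to 33.0 with IL-9 and 28.1 to 40.8 with CCL1, against 53.7 to 55.9 with neither. They were thus lower with CCL1 too, though Btg2 was not called with CCL1 by number. Nr4a1, an orphan nuclear receptor induced by T cell receptor signals, rose with CCL1 in that model (1.20, SE 0.16, adjusted p = 0.0135). It had 84.7 in each Dex+CCL1 array, against 38.6 and 18.9 with Dex, and 87.1 and 8.49 with CCL1, against 34.1 and 7.21 in unstimulated cells, so the array CCL1 2, which that model did not hold, lay with the low values. When 1 array at a time was left out, the Zfp36 difference between IL-9 and CCL1 stayed past the threshold in the main model without Dex 1 (adjusted p = 0.0286) or Dex 2 (0.0287) and was lost without any 1 of the other 8 (0.0540 to 0.251). Of the calls by number, those of Zfp36 and Gadd45b with IL-9 held in 3 of 11 such models each, that of Btg2 in 7 and that of Nr4a1 with CCL1 in 6. For IL-9 minus CCL1 the model by number called 46 of 13575 probe sets higher and 59 lower. Lower was Nr4a1 (-1.30, SE 0.16, adjusted p = 0.00185), without CCL1 2 in the fit. Higher were Zfp36 (1.00, SE 0.16, adjusted p = 0.0122), Gadd45b (0.97, SE 0.17, adjusted p = 0.0201) and Zfp36l1 (0.79, SE 0.14, adjusted p = 0.0201). With 1 array left out the Nr4a1 difference was -1.40 to -1.13, and the calls of the other genes were each lost in some fits. None of these fits held CCL1 2, so the narrow range of Nr4a1 does not cover the pair IL-9 2 and CCL1 2. In that pair Nr4a1 was low in both arrays and slightly higher with IL-9. It was lower with IL-9 in both pairs with Dex and in the pair numbered 1 without it. The list's median difference was 0.038 with IL-9 and -0.11 with CCL1, beside -0.018 and -0.026 over all 7507 genes.

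Genes known as AP-1 or EGR targets in activated T cells were mostly too dim to test. Only 4 of 13 listed passed the filter (Tnf, Cd44, Ccnd1 and Vim) and 0 were called. Il2, Il2ra, Fasl, Ifng, Il4, Ccl3, Ccl4 and Cd5 lay below the filter, with Il2 at 0.159 to 7.07. Cd44, an adhesion receptor, differed by 0.26 with IL-9 (adjusted p = 0.728) and 0.37 with CCL1 (adjusted p = 0.906), and Tnf by -0.27 (adjusted p = 0.706) and 0.17 (adjusted p = 0.949).

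The genes with the most similar profiles were found by Pearson's r of log2(signal + 16) over the 12 arrays among 7507 genes, 2 for each gene past the filter. The arrays share their scaling and their numbers, and for Fos they form 2 clusters, so r is a description of likeness only. For Fos they were Sgk1 (r = 0.934), a kinase induced by serum and by glucocorticoids, and Tor1b (0.915). Sgk1 had 226 to 311 in the 4 IL-9 arrays, against 33.0 to 70.7 in the 8 others, so it shared the gap of Fos, whereas Tor1b had 111 to 130 against 88.0 to 112. Junb was most like Esyt1 (0.916) and Wars (0.915), a tryptophanyl-tRNA synthetase. Wars had 296 to 362 in the IL-9 arrays, against 211 to 288 in the others. Jund was most like Gclm (0.945), a subunit of the enzyme that makes glutathione's precursor, and Pgp (0.937), and both were higher in every array numbered 2 than in every array numbered 1. Fosl2 was most like Ss18l2 (0.871) and Aatf (0.843), and Egr3 most like Ube2d3 (0.863) and Psma1 (0.853). Between the genes themselves, Fos and Junb had r = 0.805 and Junb and Jund 0.522.

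**Figure D4:**
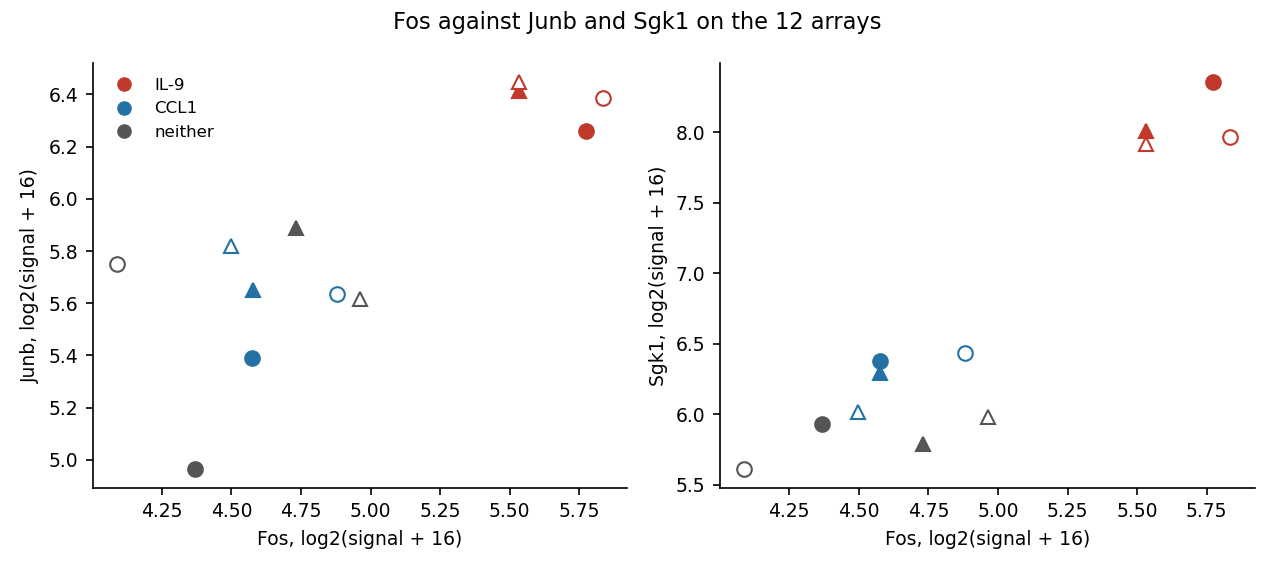
Log2(signal + 16) of Junb (left) and Sgk1 (right) against that of Fos, with 1 symbol for each of the 12 arrays: red IL-9, blue CCL1, grey neither, filled with Dex and open without, circles number 1 and triangles number 2. The 4 IL-9 arrays form a group of their own at the upper right in both panels.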

How the data were processed

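Total RNA was measured on 12 arrays in 6 groups. The deposited values were MAS5 signal intensity values made by the authors, per the submitters' processing notes; they are linear and came in a table of 11 arrays and a table of 1 array. For the MAS5 version and any further step the sources used here give nothing. Each array had a trimmed mean of 100 (2% removed at each end), which would hide a shift shared by all genes. The number of arrays limits the precision.

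Leaving out 64 control probe sets gave 22626, of which the 13575 with a mean above the 40th percentile were kept. Signals were analysed as log2(signal + 16), which understates folds of low genes. The platform annotation gave 20380 probe sets 1 symbol, 691 several and 1555 none. A gene was represented by its probe set with the highest mean.

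Group means over the 11 arrays were fitted in limma 3.58.1 (R 4.3.3) with an intensity trend and tested on simulated data. The number by number model had 4 blocks (Dex condition and number) with additive IL-9 and CCL1 terms. The numbers were checked by correlating deviations from group means over probe sets: r was -0.00506 to 0.350 over all group pairs, 0.181 to 0.350 within a Dex condition and up to 0.234 across them. The ranges overlap, and the pairing within each Dex condition rests on the data, not on the labels.

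Named were all 10 genes, called genes of 7 lists with up to 4 others of each, and the 2 most correlated genes. Members and lists were chosen with earlier results of these data known. Alternatives were other pseudocounts, filters, scalings and blocks, the array CCL1 2 added, and arrays left out.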

Additional observations from a re-analysis of the deposited data

Results flagged for a closer look

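For Egr3, the differences between same-numbered arrays had opposite directions with and without Dex. IL-9 with Dex was below Dex in both pairs, with a mean of -0.204, and IL-9 alone was above unstimulated cells in both pairs, with a mean of 0.353. The interaction in the main model was -0.56 (SE 0.36, adjusted p = 1.00). For Egr1, CCL1 gave means of 0.295 with Dex and -0.106 without it, each with 1 direction in both pairs. Egr1 lay below the filter, and with all probe sets kept the interaction was 0.52 (SE 0.28, adjusted p = 0.998). Signals of both genes were low, at most 16.9 for Egr3 and 8.86 for Egr1. The share of all probe sets with such opposite directions is not given here, so these directions are not read as an effect of Dex.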

How the results depend on the processing

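Of 1265 values of the 5 genes under an alternative, 36 gained a call, 87 changed direction without a call in either fit, and the other 1142 kept their direction and their side of the threshold. The gained calls all belonged to Fos and Junb, for averaged IL-9 or for IL-9 minus CCL1. Counts of called probe sets moved more. For averaged IL-9 they were 13 in the main model, 111 with the replicate block within the Dex condition, 143 with the array CCL1 2 added to it, 49 without a filter in it, 210 in the arrays numbered 1 and 2 in those numbered 2. For averaged CCL1 the counts were 1, 44, 108, 9, 109 and 0, with 3 when CCL1 2 was added to the main model and 2 under the block without the no-Dex arrays numbered 1. For IL-9 minus CCL1 they were 32, 105, 160, 66, 165 and 9, with 19 at a pseudocount of 1 and 18 without a filter. For Dex+IL-9 against Dex the count was 3 in the main model, 5 at a pseudocount of 64, with median centring or with CCL1 2 added, and 6 with the replicate block over all groups. For CCL1 against unstimulated cells it was 0, and 1 at a pseudocount of 64, with CCL1 2 added or with 1 probe set per gene. For Dex+CCL1 against Dex it was 1, and 0 without the intensity trend. For Dex against unstimulated cells it was 0. In the arrays numbered 2 alone, with Dex averaged over no stimulus, IL-9 and CCL1, it was 23. The cause of these changes was not tested.

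Leaving out 1 array gave 3 to 5 calls for IL-9 against unstimulated cells, 2 to 669 for Dex+IL-9 against Dex, 5 to 358 for averaged IL-9, 0 to 1 for CCL1 against unstimulated cells, 0 to 531 for Dex+CCL1 against Dex, 1 to 88 for averaged CCL1, 14 to 211 for IL-9 minus CCL1, 0 to 529 for Dex against unstimulated cells, and 0 to 271 and 0 to 101 for the interactions of IL-9 and CCL1 with Dex. The counts of 669, 358, 531, 529, 271 and 101 were without Dex 1, which left Dex 2 alone in its group with a spread taken from the other groups, and those of 88 and 211 were under the block without Dex 2. The replicate block over all groups gave Fos an adjusted p of 0.0619 and Junb 0.113 with IL-9, so the calls of both under the block within the Dex condition were absent there. Interactions could not be fitted under the block within the Dex condition. With 2 arrays per group and signals below the array medians, small changes of Fosl2 and Egr3 would not have been detected.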
